A study of Mus musculus with 2 samples.

Results

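Reads of microRNAs (miRNAs) that carry nucleotides not encoded in the miRNA hairpin at their 3' end were collected from 2 small RNA libraries of mouse spleen cells. A member was a distinct sequence, called a tag, of 18 to 30 nt that matched no miRNA hairpin as it stood, but did so without mismatch once 1, 2 or 3 nt had been removed from its 3' end, with 18 nt or more left. The fewest nt that gave a match were removed, the removed letters are called the tail, and the rest is called the templated part. There were 8464 such tags, 7456 in the Ia_high library and 3840 in the Ia_low library, with 2832 found in each. They stood among 1136298 and 572160 tags of 18 to 30 nt and carried 1553981 and 952334 reads. The choice of members used the letters of a tag and its match to the hairpins, and no read count.

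The cells came from C57BL/6J spleens, were enriched on CD11c-conjugated beads and were sorted by how much Ia, the mouse MHC class II protein, they carried on the surface: Ia_high cells and Ia_low cells. Each sorted population is labelled as dendritic cells, with a stated purity above 95%. The labels name no agent, and they state neither the age and sex of the mice nor how many were pooled. With 1 library per population there was no replicate, no test and no p-value between populations. Intervals in parentheses after a share are exact (Clopper-Pearson) 95% intervals, taken after counts had been divided by a fixed read number per library. Among tags of more than 1 read, this was the read number seen on more tags than any other, 4 in Ia_high and 9 in Ia_low. The division was made because the reads were amplified for 12 PCR cycles without molecular identifiers. The intervals cover counting error only.

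The libraries held 16388303 and 13739811 reads. Fragments of mRNA in the same libraries were used to check the sort and the labelled cell type, as counts of distinct fragments scaled to the same total (CPM). A gene was called when it differed at least 2-fold and the interval of the ratio excluded 1, which 6.35% of 6931 genes with 10 fragments or more over both libraries did as higher in Ia_low and 7.3% as lower. MHC class II genes were called lower in Ia_low for 4 of 5, all but Cd74, and their summed level was 13175 against 7191 CPM. Of 7 dendritic cell genes, 4 were called lower (Flt3, Zbtb46, Clec9a and Cd209a), and Xcr1 had 42 fragments in Ia_high and 0 in Ia_low. Of 5 genes of Ly6C-low monocytes, 4 were called higher in Ia_low, and the summed level of the 5 was 4648 against 11349 CPM. B cell genes had 15 and 3 fragments, erythroid genes 2 and 0, and the T cell genes Cd3e, Cd3d and Cd3g were at 0 in each library. The markers of cell types and the level of Ia thus differed together between the libraries and cannot be told apart, and fewer cells of a type and less RNA per cell cannot be told apart either.

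A mature miRNA is cut from its hairpin by Drosha and Dicer and loaded into an Argonaute protein, which leaves its 3' end open to enzymes. Terminal nucleotidyltransferases add nucleotides without a template: Tut4 and Tut7 mainly add uridine, and Tent2 mainly adds adenosine. Added nucleotides are known to mark some miRNAs or their precursors for decay, as with the Lin28-directed uridylation of let-7 precursors that Dis3l2 degrades, and to protect or leave unchanged others. In the DNA letters of the deposited tags, T stands for the uridine of the RNA.

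More reads with a tail belonged to miR-92a-3p of the Mir92-1 hairpin than to any other miRNA. Its leading tags are shown with the tail in capitals to make the added letters visible. The templated part of all but the first line lay at chr14:115044476-115044497 on the plus strand of GRCm38, in the hairpin Mir92-1, which lies in an exon of the lincRNA Mir17hg. The first line is the RefSeq mature sequence (GRCm38.p6) with its seed, bases 2 to 8, in capitals. The second is the most abundant templated tag over both libraries together, called the main tag. It is followed in capitals by the 5 nt that the hairpin would add.
miR-92a-3p, RefSeq: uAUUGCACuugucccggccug
Main tag and template: tattgcacttgtcccggcctgtTGAGT
Tail AA: tattgcacttgtcccggcctgtAA
Tail AT: tattgcacttgtcccggcctgtAT
Tail AG: tattgcacttgtcccggcctgtAG
Tail AAT: tattgcacttgtcccggcctgtAAT
Tail A: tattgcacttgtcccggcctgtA
Tail AAA: tattgcacttgtcccggcctgtAAA

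For miR-92a-3p (Mir92-1), the untemplated form was the rule and the encoded form the exception. Untemplated reads numbered 618698 of 710714 in Ia_high and 503595 of 555514 in Ia_low, a share of 87.1% (86.9% to 87.2%) and 90.7% (90.4% to 90.9%). The unextended main tag held 76645 and 41934 reads, 10.8% and 7.55% of the reads of this miRNA. The tag ending in AA had 189041 and 144728 reads, and the tag ending in AT had 177378 and 157278. The tag ending in AG followed with 52372 and 35212 reads, AAT with 35718 and 38276, and a single A with 33760 and 23427. The order of AA and AT was thus opposite in the libraries, with AA ahead in Ia_high and AT ahead in Ia_low.

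The first added nucleotide of miR-92a-3p (Mir92-1) was A in 97.0% of its untemplated reads in Ia_high and 97.1% in Ia_low. Tails of 2 nt made up 71.1% and 70.4% of them, tails of 3 nt 20.3% and 21.8%, and single nucleotides 8.67% and 7.80%. Reads built on the whole 22 nt main tag were 93.8% of the untemplated reads in each library. When miRNAs were ranked by templated reads alone, this miRNA was number 13 in Ia_high and number 10 in Ia_low of 88. With the untemplated reads counted, it was number 3 and number 1.

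The hairpin Mir92-2 on the X chromosome gives the same mature letters, but its template goes on with A where that of Mir92-1 goes on with T, so reads of 22 nt are told apart by their last letter. For miR-92a-3p (Mir92-2), the share was 36.2% (34.6% to 37.7%) of 15322 reads in Ia_high and 47.4% (43.7% to 51.1%) of 6594 in Ia_low, and the leading untemplated tag ended in a single T, with 2260 and 1122 reads. A read of the shared first 21 nt with 1 added A cannot be told from the template of Mir92-2, nor one with 1 added T from that of Mir92-1. Tags that fit several miRNAs were left out of all shares, 0.445% and 0.262% of untemplated reads and 0.530% and 0.273% of templated reads. The templated reads left out numbered 31174 in Ia_high and 7368 in Ia_low, over all miRNAs. The shared first 21 nt without a tail are such a tag. The shares of both hairpins thus leave out these unextended reads and would be lower with them. miR-25-3p, of the same seed, had 15.8% and 22.9% untemplated reads, and the first added letter was T in 63.0% and 60.8% of them.

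Over all miRNAs, 1547069 of 7393432 assigned reads were untemplated in Ia_high and 949839 of 3640744 in Ia_low, 20.9% (20.87% to 20.98%) and 26.1% (26.0% to 26.2%). Without Mir92-1 the shares were 13.9% (13.84% to 13.95%) and 14.5% (14.3% to 14.6%). Most of the gap between the pooled shares thus went with that hairpin. The share of miR-92a-3p (Mir92-1) itself was 87.1% and 90.7%. Its part of all assigned reads was 1.59 times as large in Ia_low as in Ia_high. A pooled share thus also depends on the mix of miRNAs, and a higher value need not mean more tails per miRNA. Reads from 5p arms were untemplated in 11.5% and 12.2% and reads from 3p arms in 53.1% and 66.9%. Without Mir92-1, 3p arms stood at 28.2% and 30.8%, still above the 5p arms in each library.

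Single A and single T were the common tails outside Mir92-1. Of the untemplated reads without that hairpin, a single A made up 39.1% and 37.4%, a single T 34.7% and 32.1%, a single C 3.24% and 6.503%, a single G 2.92% and 2.72%, and longer tails 20.1% and 21.2%. Tails of A and T letters alone were 88.7% of these reads in Ia_high and 84.3% in Ia_low. With Mir92-1 included, longer tails rose to 48.6% and 58.9% of untemplated reads. At the limits of the rule, tails of 3 nt had 170899 and 132447 reads and tails of 4 nt, just outside it, had 28791 and 20441. Tags with a templated part of 17 nt, also just outside, had 3180 and 1865 reads.

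The kind of tail differed by arm. On 5p arms a single A made up 47.4% and 45.5% of untemplated reads and a single T 30.6% and 27.8%. On 3p arms without Mir92-1 the order was the other way, with T at 44.3% and 44.7% and A at 19.3% and 13.7%. Counted over miRNAs, T tails outnumbered A tails in 23 and 25 of the 36 miRNAs from 3p arms, and in 23 and 25 of the 52 from 5p arms. An added letter that equals the next base of the template cannot be seen, as described further on. The arms were not compared at equal next bases.

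Shares per miRNA were taken for the 88 miRNAs that reached 1000 reads in both libraries, of 428 with an untemplated read and 625 measured. RefSeq mature sequences with the same gene matched 73 of the 88, and the others carry the symbol of their hairpin. The 92 hairpins behind them lay within a host gene on the same strand in 69 cases, 45 of them protein-coding. The share ran from 0.492% to 93.7% in Ia_high with a median of 16.5%, and from 0.829% to 95.3% in Ia_low with a median of 21.9%. Over the 52 miRNAs from 5p arms the medians were 13.5% and 15.97%, and over the 36 from 3p arms 28.4% and 42.2%. At least 50% of reads were untemplated in 13 miRNAs in Ia_high and 18 in Ia_low, and under 5% in 13 and 11. A single T was the leading kind of tail for 38 and 39 miRNAs, a single A for 28 and 25, a longer tail for 20 and 22, and a single C and a single G for 1 each.

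**Figure D1:**
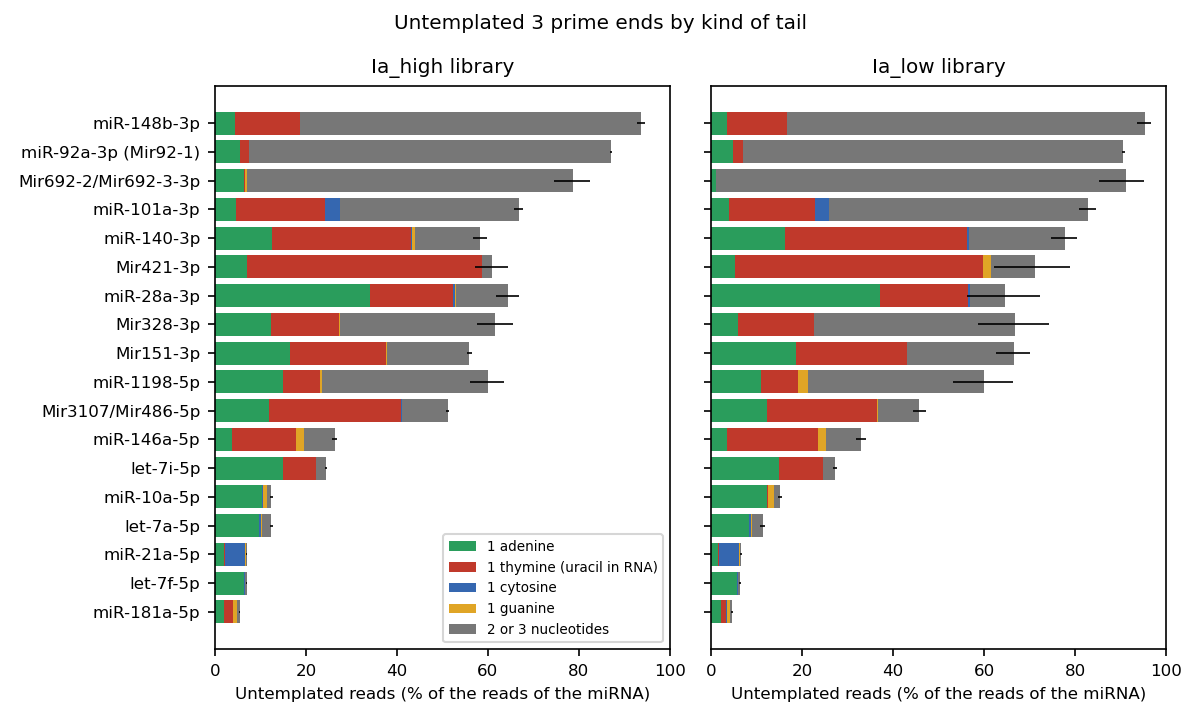
Share of untemplated reads for the 10 miRNAs with the most such reads and the 10 with the highest mean share (18 in all, since 2 are in both sets), in each library; the x axis is the percent of the reads of the miRNA, colours give the kind of tail and black lines the widened 95% interval of the whole share. miR-148b-3p and miR-92a-3p (Mir92-1) lie above 85% with mostly longer tails, while let-7f-5p lies at 6.93% and 6.34% with mostly single adenine.

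Members with high shares differed in what had been added. The tags below carry the leading tails of 6 further miRNAs and show the different ends and letters, CT, TT and single A, T or C (templated parts in GRCm38: chr15:103285185-103285206 plus strand for miR-148b-3p, chr4:101346958-101346977 minus strand for miR-101a-3p, chr10:122985698-122985719 minus strand for let-7i-5p, chr11:86584119-86584141 minus strand for miR-21a-5p, chr16:24827908-24827929 plus strand for miR-28a-3p). Mir148b and Mir28a lie in introns of Copz1 and Lpp, Mir101a in an exon of the lincRNA E130102H24Rik, and Mir21a in an exon of Vmp1. The templated letters of miR-103-3p fit both Mir103-1, in an intron of Pank3, and Mir103-2, in an intron of Pank2.
miR-148b-3p, tail TT: tcagtgcatcacagaactttgtTT
miR-101a-3p, tail CT: tacagtactgtgataactgaCT
miR-103-3p, tail T: agcagcattgtacagggctatgT
let-7i-5p, tail A: tgaggtagtagtttgtgctgttA
miR-21a-5p, tail C: tagcttatcagactgatgttgacC
miR-28a-3p, tail A: cactagattgtgagctgctggaA

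miR-148b-3p had the highest share, 93.7% (92.9% to 94.5%) of 15209 reads in Ia_high and 95.3% (93.6% to 96.6%) of 7648 in Ia_low. The tag with 2 added T had 9363 and 5193 reads, while the unextended main tag had 561 and 167. Its first added letter was T in 92.6% and 94.3% of untemplated reads. By templated reads alone it was number 86 of 88 in each library, and number 47 and 41 once untemplated reads were counted. Its relative miR-148a-3p, which shares the seed CAGUGCA, had 8.73% of 54530 and 8.74% of 39125 reads untemplated. The main tag of miR-148a-3p ends with the C that follows the main tag of miR-148b-3p in its hairpin, and its own hairpin goes on with T. A T added to the main tag of miR-148a-3p thus reads as template. Where the main tag of miR-148b-3p ends, both hairpins go on with C, so a T added there is seen on both. On miR-148a-3p, 90.3% and 93.2% of tails stood before the end of the main tag, and the first added letter was T in 46.9% and 53.2% of untemplated reads.

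miR-101a-3p had 66.8% (65.8% to 67.7%) and 82.8% (80.8% to 84.7%) untemplated reads, and its leading tag, with CT in place of the template, had 12220 and 6608 reads. The tailed reads did not start where most templated reads did: 62.6% of templated reads in each library started at the main start, against 6.00% and 4.64% of untemplated reads. Reads that started 1 nt further downstream, at the first base of the RefSeq mature sequence, were untemplated in 83.5% (82.6% to 84.4%) and 92.6% (91.1% to 94.0%). Reads at the main start were untemplated in 16.1% (14.7% to 17.7%) and 26.3% (20.7% to 32.6%). Tags were not matched to the whole genome, so whether the letters CT are encoded outside the annotated transcripts was not tested.

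The share also differed by start in some of the other miRNAs that had at least 1000 reads at several starts. For miR-10a-5p, reads 1 nt downstream of the main start were untemplated in 21.4% (20.6% to 22.3%) and 27.1% (26.0% to 28.2%), against 9.23% and 11.0% at the main start. For miR-142a-5p, reads 2 nt downstream had 1.82% (1.54% to 2.14%) and 2.04% (0.962% to 3.77%), against 5.69% and 16.1%. In miR-146a-5p, a regulator of immune signalling with 26.3% and 33.01% untemplated reads and T as its leading tail, reads 1 nt upstream had 38.7% (36.5% to 41.02%) and 40.2% (36.6% to 43.8%), against 25.3% and 32.2% at the main start. For miR-423-3p the starts were alike within counting error, with 29.2% and 33.6% upstream and 28.1% and 33.3% at the main start.

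T tails marked miR-103-3p, Mir421-3p, miR-342-5p and miR-140-3p, the miRNAs with the highest shares of a single T. In miR-103-3p a single T ended 41.2% of reads in Ia_high and 46.6% in Ia_low, and 54.8% (53.8% to 55.8%) and 63.8% (61.8% to 65.7%) of its reads were untemplated in all. Most of its tails, 90.9% and 89.95%, stood on a templated part that was shorter than the main tag, in place of its last A. An added A at that place is the same as the template, and none was counted. For Mir421-3p a single T ended 51.7% and 54.7% of reads, for miR-342-5p 34.97% and 41.7%, and for miR-140-3p 30.6% and 40.1%.

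A tails were highest in miR-28a-3p, miR-130b-3p, Mir532-5p and miR-181a-2-3p. In miR-28a-3p a single A ended 34.1% and 37.1% of reads, and its whole share, 64.4% (61.8% to 66.8%) and 64.7% (56.3% to 72.4%), was alike in the libraries within counting error. In miR-130b-3p a single A ended 26.3% and 39.8%, in Mir532-5p 22.8% and 25.04%, and in miR-181a-2-3p 14.6% and 20.9%. For miR-10a-5p, single A tails were 10.3% and 12.4% of reads, of a share of 12.4% and 15.1%.

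C and G tails were rare, and each led in 1 miRNA. miR-21a-5p, an abundant miRNA of immune cells, had a single C on 4.20% and 4.31% of its 440842 and 502643 reads, and C was the first added letter in 61.3% and 66.5% of its untemplated reads. The tag with this C had 18378 and 21640 reads, more than the 7039 and 5357 reads with A. Next by share of single C were let-7d-3p with 3.18% and 3.77%, miR-142a-3p with 3.74% and 2.71%, and miR-101a-3p with 3.21% and 3.22%. For G, miR-29a-3p had 14.1% and 12.2%, miR-223-3p 4.39% and 6.54%, and miR-130b-3p 3.30% and 0.647%. miR-3470b, with 1.76% and 2.87%, rests on tags most of which fit other transcripts, as described further on.

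Members of the let-7 family, which act in differentiation and of which 8 share the seed GAGGUAG, had low to middle shares. The median over the 9 let-7 miRNAs was 14.03% in Ia_high and 15.05% in Ia_low, against 16.5% and 21.9% over all 88. The share was higher in Ia_low for 4 of the 9, and none was called 2-fold apart. let-7i-5p had 24.4% (24.2% to 24.7%) and 27.2% (26.7% to 27.7%), with a single A on 14.9% and 15.0% of reads and a single T on 7.29% and 9.56%. let-7f-5p, with 1218093 and 502283 reads, had 6.93% and 6.34%, and a single A on 6.37% and 5.67%. Among the let-7 miRNAs from 5p arms, let-7i-5p and miR-98-5p, whose template goes on with G, had single T tails on 2.96% of reads or more. let-7a-5p and let-7g-5p, whose template goes on with T, had 0.0442% and 0.0378%, and 0.0866% and 0.183%; a T added to their main tag reads as template. let-7b-5p, whose template also goes on with T, had single T tails on 2.24% and 5.65%. It had the highest share of the family, 36.1% (32.5% to 39.7%) and 41.5% (36.2% to 46.9%), mostly in longer tails.

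The other families differed among themselves. The 6 miRNAs of the miR-30 family had medians of 8.28% and 10.2% and were higher in Ia_low in 6 of 6, none 2-fold. miR-30e-3p, the one from a 3p arm, had 25.2% and 35.1%, against 4.21% to 15.4% in Ia_high for the 5 from 5p arms. miR-26a-5p, with 18.4% and 26.5%, carried T on 12.5% and 20.02% of reads, whereas miR-26b-5p, with 22.9% and 26.4%, carried A on 12.6% and 13.1% and T on 6.70% and 10.6%. Both templates go on with G. miR-27b-3p had 9.06% and 16.6%, and miR-23a-3p 13.1% and 23.5%.

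Among miRNAs with many reads, miR-181a-5p had 1284233 and 385802 reads with 5.44% and 4.66% untemplated. Of these tails, 96.0% and 94.4% stood on a templated part shorter than its main tag. miR-191-5p had 2.16% and 2.504%, miR-16-5p 2.09% and 2.11%, and miR-22-3p 1.26% and 1.06%. Mir3107/Mir486-5p, which fits 2 hairpins that overlap on opposite strands of chromosome 8, had 51.1% (50.7% to 51.5%) and 45.8% (44.4% to 47.1%), with a single T on 29.1% and 24.1% of reads. Mir151-3p, from an intron of Ptk2, had 55.9% and 66.5%, and A and T as first added letters in near equal parts, 49.8% and 49.7% in Ia_high. Mir328-3p had 61.6% and 66.8%, and miR-1198-5p 59.9% in each library, with longer tails leading in each.

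What the template would have added limits which tails can be seen. Over the 30 miRNAs whose template goes on with T, the median share of single T tails was 0.788% and 0.900%. It was 14.3% and 23.2% over the 18 where the next base is A, 13.5% and 13.3% over the 17 where it is C, and 4.76% and 5.94% over the 20 where it is G. The hairpin of miR-142a-3p ends with its main tag, but 97.7% and 100% of its tails stood before that end, where the first added letter differs from the hairpin. The hairpin of miR-140-3p runs 3 nt past its main tag, and 1.52% and 2.66% of its tails stood past the end of the main tag.

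The same trimming at the 5' end gave the background of the method. Tags that matched a hairpin only after 1 to 3 nt were removed from the 5' end were 0.656% and 0.707% of these plus the templated reads, against 20.9% and 26.1% at the 3' end. The median over the 88 miRNAs was 0.372% in each library, and the 3' share was above the 5' share in both libraries in 87 of 88. For some the margin was small. miR-3470b stood at 31.4% and 36.2% at the 5' end, against 34.5% and 50.3% at the 3' end. Mir3470a-5p stood at 20.3% and 34.9%, against 20.7% and 39.2%. In the 30 most abundant miRNAs, tags that differed from the main tag at 1 base were also counted. The median over miRNAs was 1.06% of unchanged reads at the last position in each library, 0.0441% and 0.0497% at the second last, and 0.0254% and 0.0228% at inner positions. The last position stood above every inner one in 27 and 26 of the 30.

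**Figure D2:**
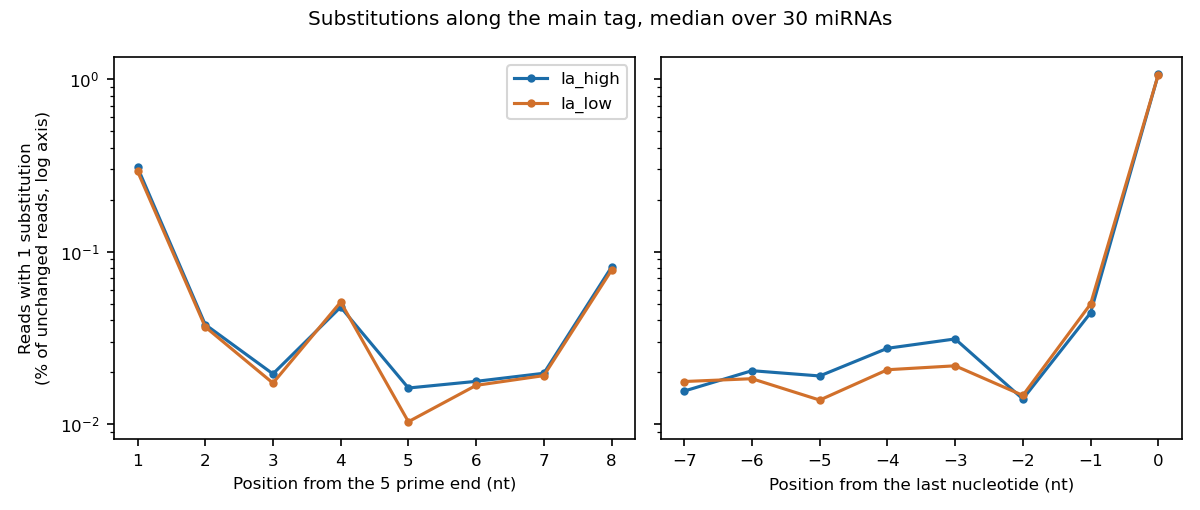
Reads that differ from the main tag of a miRNA by 1 base, as a percent of unchanged reads (log axis), by position counted from the 5' end (left) and from the last nucleotide, which is 0 (right); points are medians over 30 miRNAs, one colour per library. The last position reaches 1.06% in each library and the second last stays under 0.05%.

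Tails stood mostly at the usual end and on reads with the usual start. Over all miRNAs, 95.9% and 94.8% of untemplated reads began at the main start, against 97.6% and 96.99% of templated reads, and 73.6% and 78.9% of tails stood at the end of the main tag. Without Mir92-1, 93.4% and 89.7% of untemplated reads began at the main start, against 97.6% and 96.9% of templated reads, and 60.2% and 62.1% of tails stood at the end of the main tag. For let-7i-5p it was 95.7% and 96.3% of tails, and for miR-26a-5p 91.8% and 95.4%. In Mir151-3p tails were spread over several ends, with 44.2% and 29.3% before the end of the main tag, 23.02% and 22.7% at it and 32.8% and 47.98% past it. Untemplated reads were longer on average than the templated reads of the same miRNA in both libraries in 84 of 88.

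Between the libraries, the share was higher in Ia_low in 68 of 88 miRNAs and lower in 20, with a median ratio of 1.18. Across the 88 miRNAs, the shares of the libraries correlated with a Spearman coefficient of 0.959 and a Pearson coefficient of 0.947, given as a description, since miRNAs of a library share its cells, chemistry and depth. A miRNA was called when its shares differed at least 2-fold and their exact intervals on the read counts did not overlap. Called higher in Ia_low were 5 of 88 (5.68%), and called lower 0 (0%). A share has an upper limit, so not every miRNA could be called. The 13 miRNAs with at least 50% untemplated reads in Ia_high had no room for a call as higher. The 18 with at least 50% in Ia_low had none for a call as lower. Both sets hold miR-92a-3p (Mir92-1) and miR-148b-3p. For comparison, 5 (5.68%) of the same miRNAs were 2-fold higher in Ia_low and 18 (20.5%) 2-fold lower by templated CPM. With the widened intervals, 4 of the 5 stayed apart.

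**Figure D3:**
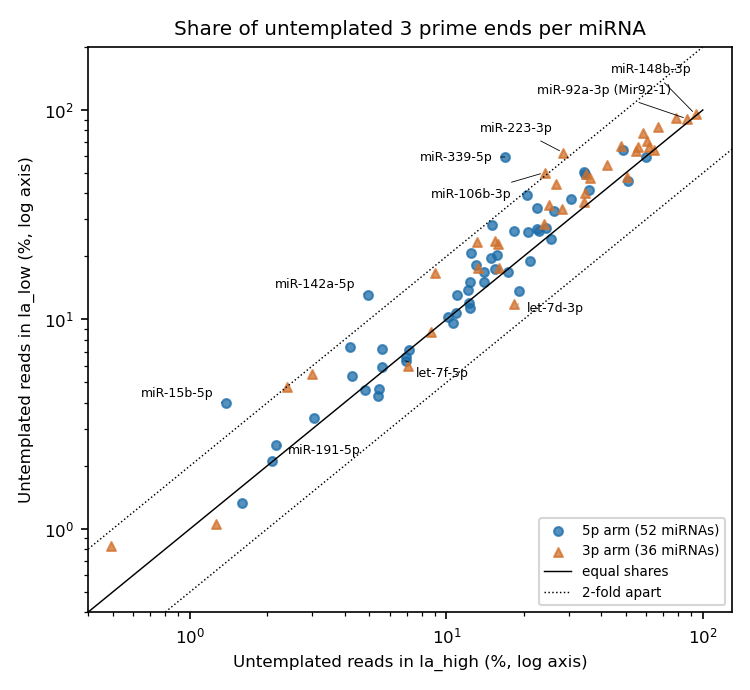
Share of untemplated reads per miRNA in Ia_high (x) and Ia_low (y), both as percent on log axes; circles are 52 miRNAs from 5p arms and triangles 36 from 3p arms, the solid line marks equal shares and the dotted lines a 2-fold difference. Most points lie on or just above the line of equal shares, 68 of 88 above it, and the 5 called miRNAs lie beyond the upper dotted line.

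The 5 called miRNAs, in order of their ratio, were miR-339-5p, miR-15b-5p, miR-142a-5p, miR-223-3p and miR-106b-3p. miR-339-5p went from 16.9% (14.3% to 19.8%) of 3029 reads in Ia_high to 59.7% (51.3% to 67.7%) of 1324 reads in Ia_low, a ratio of 3.53. miR-142a-5p, of a hairpin made mainly in blood cells, went from 4.95% (4.75% to 5.15%) to 13.1% (11.8% to 14.6%), a ratio of 2.65. miR-223-3p, abundant in myeloid cells, went from 28.5% (26.6% to 30.5%) to 62.6% (57.6% to 67.4%), a ratio of 2.19. miR-106b-3p went from 24.1% (22.6% to 25.8%) to 50.3% (44.2% to 56.3%), a ratio of 2.08. miR-15b-5p rested on 54 and 42 untemplated reads, 1.37% (0.744% to 2.32%) and 3.98% (1.24% to 9.28%), and its widened intervals overlapped.

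In 4 of these 5 the main tag was short and the reads of Ia_low were longer. The main tag was chosen over both libraries together, so its end need not be the usual end in Ia_low. The tags below show where a single T tail sits on each, past the end of the main tag (GRCm38: chr5:139369709-139369730 minus strand for the templated part of miR-339-5p, chrX:96242884-96242905 plus strand for miR-223-3p, chr11:87756865-87756885 plus strand for miR-142a-5p, chr5:138165747-138165767 minus strand for miR-106b-3p). In miR-106b-3p a single T was not the leading kind. It ended 4.63% of reads in Ia_high and 11.3% in Ia_low, against 13.1% and 33.6% for longer tails. The first added letter of miR-106b-3p was A in 71.8% and 70.6% of untemplated reads. Mir339 lies in an intron of 3110082I17Rik, Mir142 in an intron of Mir142hg, Mir106b in an intron of Mcm7 and Mir223 in an exon of the antisense gene F630028O10Rik.
miR-339-5p, main tag: tccctgtcctccaggagctc
miR-339-5p, tail T: tccctgtcctccaggagctcacT
miR-223-3p, main tag: tgtcagtttgtcaaatacc
miR-223-3p, tail T: tgtcagtttgtcaaataccccaT
miR-142a-5p, main tag: cccataaagtagaaagcact
miR-142a-5p, tail T: cccataaagtagaaagcactaT
miR-106b-3p, main tag: ccgcactgtgggtacttgct
miR-106b-3p, tail T: ccgcactgtgggtacttgctgT

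Templated reads of 20 nt or less were 83.8% of the templated reads of miR-339-5p in Ia_high and 14.8% in Ia_low. For miR-223-3p they were 61.1% and 10.8%, for miR-142a-5p 65.1% and 38.0%, and for miR-106b-3p 53.3% and 20.4%. The tag of miR-339-5p with a T after 22 templated nt had 200 and 402 reads, while its 20 nt main tag had 2089 and 79. The corresponding tag of miR-223-3p had 485 and 758 reads, and its 19 nt main tag 2194 and 28. Among reads of 22 to 24 nt alone, a restriction chosen after the lengths had been seen, the ratios of these 4 were 1.08, 1.23, 1.11 and 1.44 in the same order.

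The difference in length was general. The median over the 88 miRNAs of the mean templated length was 21.9 nt in Ia_high and 22.1 nt in Ia_low, with longer templated reads in Ia_low in 82 of 88. Templated reads of 20 nt or less had a median share of 3.09% and 0.941% and were less frequent in Ia_low in 80 of 88. Without Mir92-1, the untemplated share was 44.98% and 59.4% at a templated length of 18 nt, 13.3% and 16.3% at 21 nt, 17.1% and 17.5% at 22 nt, and 4.55% and 8.16% at 23 nt. At 24 nt the order of the libraries was the other way, 6.43% and 4.63%. Among reads of 22 to 24 nt, 49 of 74 miRNAs had the higher share in Ia_low, with a median ratio of 1.07, and 0 were called higher and 1 lower. Among reads with a templated part of 21 to 23 nt, 62 of 82 did, with a median ratio of 1.16 and 3 called higher, of which 1 was among the 5 above.

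**Figure D4:**
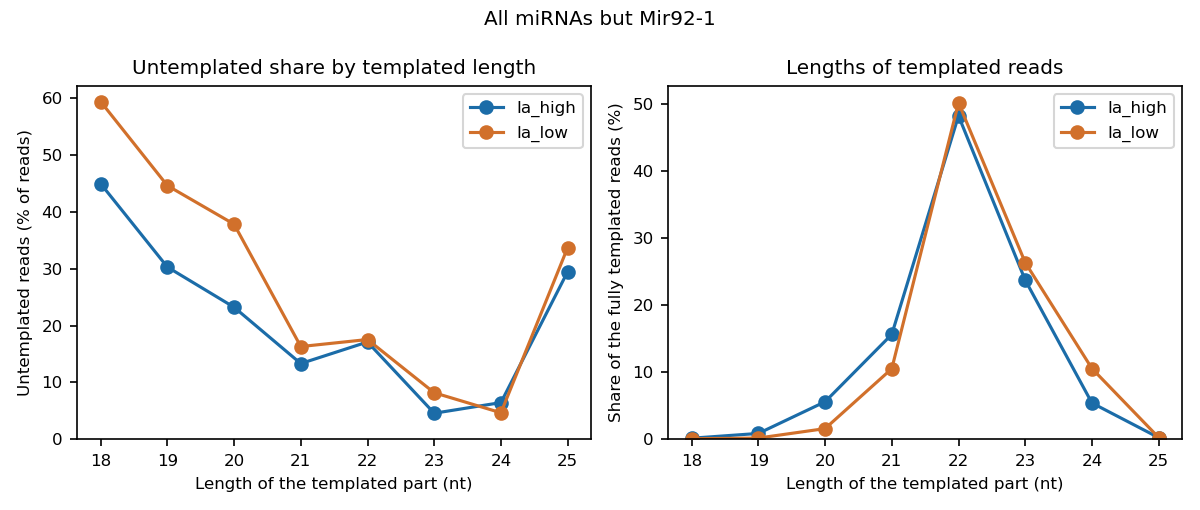
Left, share of untemplated reads (percent of reads) by the length of the templated part in nt, all miRNAs but Mir92-1. Right, share of the fully templated reads at each length (percent), one colour per library. Ia_low lies above Ia_high at 18 to 21 nt, and its templated reads hold 1.57% at 20 nt against 5.58% in Ia_high.

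The kinds of tail were compared between the libraries in the same way. On the undivided read counts, single T tails were at least 2-fold higher in Ia_low with intervals apart in 14 of 88 miRNAs (15.9%) and lower in 4 (4.55%). Single A tails were higher in 7 (7.95%) and lower in 8 (9.09%). Longer tails were higher in 13 (14.8%) and lower in 1 (1.14%), C tails higher in 13 (14.8%) and lower in 6 (6.82%), and G tails higher in 8 (9.09%) and lower in 7 (7.95%). With the widened intervals, fewer stayed apart: of those higher, 6 of 14 for T, 3 of 7 for A, 10 of 13 for longer tails, 2 of 13 for C and 2 of 8 for G. Of those lower, 1 of 8 for A stayed apart and 0 for the other kinds. miR-23a-3p was called in both directions, with a single T on 3.83% and 14.3% of reads and a single A on 4.21% and 0.936%, and its widened intervals were apart for T and overlapped for A. let-7b-5p was too, with T on 2.24% and 5.65% and A on 7.45% and 3.63%, and its widened intervals overlapped for both. miR-29a-3p had T on 3.20% and 7.62%, with widened intervals apart.

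Some tails are encoded elsewhere. Of the untemplated reads, 0.356% in Ia_high and 0.871% in Ia_low matched another annotated transcript without mismatch. Places outside the annotated transcripts were not searched, so tails encoded there are not counted here. They were 93.2% and 93.5% of the untemplated reads of miR-3470b, 84.8% and 83% of those of Mir692-2/Mir692-3-3p, and 95.5% and 85.0% of those of Mir3470a-5p. The share of Mir692-2/Mir692-3-3p, 78.7% and 91.2%, is thus mostly one of reads that fit another gene, and it lies in an exon of Ftl1-ps1 at 1 of its 2 sites. Leaving such tags out moved the share of these 3 by over 1.5 times in a library, and of none of the others among the 88.

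Fragments of the mRNAs of tailing and trimming enzymes were counted in the same libraries, per distinct fragment, so they compare a gene between libraries and not genes with each other. The list also held Lin28a and Lin28b, which direct uridylation and are not enzymes. Of the 16 genes listed, 12 had 10 fragments or more over both libraries, 1 was called higher and 1 lower, against 6.35% and 7.3% of all genes. The uridylyltransferases Tut4 and Tut7 had 55 and 16, and 71 and 32 fragments, ratios in CPM of 0.703 (0.376 to 1.25) and 1.09 (0.694 to 1.68). The adenylyltransferase Tent2 had 20 and 10 fragments, a ratio of 1.21 (0.505 to 2.71). Tent5a, a poly(A) polymerase, had 27 and 40 fragments and was 3.58-fold higher in Ia_low (2.14 to 6.07), and Tent5c, of the same family, had 137 and 14 and was 4.05-fold lower. Dis3l2 had 10 and 1 fragments, Lin28a 1 and 0, and Lin28b 0 in each library.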

How the data were processed

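The authors deposited, per library, a text file of distinct sequences with their length and read counts, whole numbers that had not been scaled. How adaptors were trimmed, reads filtered or a build chosen is not given in the sources used here. Per the labels' protocols, a gel was used to keep RNA shorter than 30 bases, and products of about 90 bp were sequenced on a Solexa instrument.

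Tags of 18 to 30 nt were matched to 1178 miRNA hairpins of GENCODE M21 (GRCm38) with Python 3.11.15. Each hairpin was split into a 5p and a 3p miRNA, copies whose leading tag is identical count as 1 miRNA, and tags that fit several were left out. Shares are untemplated reads over all assigned reads. Intervals used scipy 1.17.1. A sequencing error near the 3' end is counted as a tail. Matching and calls were tested on simulated reads of 400 hairpins, where 100% of changed and of unchanged miRNAs were called as made. The simulated reads were independent, equal in number for each miRNA, built on a fixed templated part, and changed by more than the 2-fold limit. The simulation thus cannot tell how calls behave with PCR copies, with few reads or with lengths that differ between libraries. The members and lists were chosen with earlier results of these data known. Named were the 10 miRNAs with most untemplated reads, the 10 highest mean shares, up to 5 highest and lowest ratios among those called, the 4 highest shares of each single tail, and the lists: let-7, miR-25 and miR-92, miR-26, miR-103 and miR-107, miR-30, miR-23, miR-27 and miR-24, and 16 genes of tailing and trimming. miR-148a-3p, miR-423-3p, miR-191-5p, miR-16-5p and miR-22-3p were named after their values had been seen. The alternatives tried are given at the end.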

Additional observations from a re-analysis of the deposited data

How the results depend on the processing

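The pooled shares, 20.9% in Ia_high and 26.1% in Ia_low, and the counts called, 5 higher and 0 lower, were recomputed under 13 alternatives. The shares were 13.9% and 14.5% without Mir92-1, 69.8% and 70.1% with each distinct tag counted once, 12.0% and 12.7% with tails of 1 nt only, 20.8% and 26.0% with a templated part of 20 nt or more, 20.6% and 25.7% with the most common start only, 20.9% and 25.9% without tags that fit another transcript, and 18.9% and 22.9% at 20 to 24 nt. Chosen after seeing the data, reads of 22 to 24 nt only gave 21.7% and 24.8%, and a templated part of 21 to 23 nt gave 21.3% and 27.7%. In each of these settings the pooled share was higher in Ia_low, but a pooled share also depends on the mix of miRNAs, as described above. Counts called higher were 8 with 300 reads or more per miRNA, 0 at 22 to 24 nt and 3 with a templated part of 21 to 23 nt (1 of them among the 5), and in the last 2 settings fewer miRNAs could be tested. The count was 6 without tags of 1 read, with the most common start only, without tags that fit another transcript, and with tails of 1 nt (4 of them among the 5). It was 4 with a templated part of 20 nt or more, at 20 to 24 nt and with 1000 templated reads or more per miRNA. Counts called lower were 2 with tails of 1 nt, 1 at 20 to 24 nt, 4 with 300 reads or more and 1 at 22 to 24 nt. The cause of each change was not tested. With each tag counted once, no miRNA had 1000 tags, so no calls were made. Hairpins extended by flanking genome, and tags matched to the whole genome, were not run, because no genome sequence was used here. No paired analysis was possible because each population has 1 library. Depth limits rare tails: 54 and 42 reads lie behind the shares of miR-15b-5p. The gel step was to keep RNA shorter than 30 bases, but tags of up to 44 nt remained. Tags over 30 nt had 267575 of 16388303 reads in Ia_high and 1960510 of 13739811 in Ia_low. The libraries thus also differed in this, and whether it bears on the lengths of miRNA reads was not tested. How much longer RNA was lost, and whether ligation favoured some ends, cannot be measured from these files.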
